A study of Mus musculus with 13 samples.

Results

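The clustered histone genes of the mouse were followed across 4 maps of pericentromere-associated domains (PADs). They were taken as all protein-coding genes of the GENCODE vM1 annotation on the mm9 autosomes whose symbols start with *Hist1h*, *Hist2h*, *Hist3h* or *Hist4h*, and they numbered 67 of 21397 autosomal protein-coding genes. Each gene was placed by the midpoint of its longest transcript on the nearest called fragment end, and genes under 500 kb apart were joined into 6 clusters. All 67 genes could be placed.

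The maps came from sat4C, a chromosome conformation capture assay that used the major satellite repeat as its viewpoint and so recorded which sequences lay close to chromocenters, the nuclear bodies in which pericentromeric heterochromatin of several chromosomes gathers. The cells were embryonic stem cells (ESCs) of the IB10 line (129/ola, 3 replicates), neural precursor cells (NPCs, 2 replicates) derived from these ESCs, astrocytes (ACs, 2 replicates) derived in culture from the NPCs, and thymus of adult male C57BL/6 mice (3 animals, each sequenced on 2 instruments). Each fragment end carried 1 consensus call per cell type, PAD or non-PAD, with no read count. The cultured cells thus descended from 1 ESC line and thymus was a mixed primary tissue. Only 1 of the 2 instruments was used for the cultured cells. Strain, culture, cell type and instrument therefore cannot be told apart between thymus and the cultured cells. No expression values were used here, so the identity of the cells could not be checked against marker genes.

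Histone genes of this kind encode the core histones H2A, H2B, H3 and H4 that wrap DNA into nucleosomes, and the linker histone H1 that binds between nucleosomes. Most are short and lack introns, are copied into mRNA chiefly during S phase, and end their mRNA in a short stem-loop in place of a poly(A) tail. The stem-loop is bound by the protein encoded by *Slbp*, and many *H2A* and *H2B* genes lie head to head and share the sequence between their start sites.

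Of the 4 sequence motifs sought, none of which the selection by symbol used, the stem-loop of the mRNA 3' end was found in the most histone genes. The window was the 150 bases after the last amino acid codon, starting with the stop codon, on the strand of the gene. There the motif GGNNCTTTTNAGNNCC was found in 58 of the 67 histone genes (86.6%) and in 60 of all 21397 autosomal genes (0.28%). It began at bases 25 to 62 of this window, with a median of 35. The 6 variants found are shown because they separated the H4 genes from the other types. The arms of the stem are in capitals and the loop is in lower case.
Variant of 36 genes of H1, H2A, H2B and H3: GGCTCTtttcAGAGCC
Variant of 9 genes of H1, H2A, H2B and H3: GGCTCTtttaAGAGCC
Variant of *Hist2h2ac*: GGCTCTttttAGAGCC
Variant of 8 H4 genes: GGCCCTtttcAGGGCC
Variant of *Hist2h4* and *Hist1h4i*: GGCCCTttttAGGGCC
Variant of *Hist1h4j* and *Hist1h4b*: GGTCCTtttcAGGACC

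All 12 H4 genes with a match had an arm that no clustered gene of another type carried. The 9 genes without a match were *Hist2h2be*, *Hist2h2bb*, *Hist1h2an*, *Hist1h2bp*, *Hist1h2bq*, *Hist1h2br*, *Hist1h3g*, *Hist1h4a* and *Hist1h2al*, which says only that these letters were not in the window of the annotated transcript. *Hist1h2al* is listed as protein-coding in GENCODE vM1 and as the transcribed pseudogene *H2af-ps2* in RefSeq (GRCm38.p6). The other 2 autosomal genes with the motif were *H2afx*, which encodes the histone that is phosphorylated at DNA breaks and whose stem had the arms of the H4 variant of 8 genes, and *AI646023*. The most frequent one was found in 13 genes that were in PADs in all 4 cell types and in 23 genes that were not, and the H4 variant of 8 genes in 4 and 4.

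The sequences between 5 pairs of head-to-head genes are shown, each from a pair with a different set of calls. They run 5' to 3' along the plus strand of mm9, from the base after the start of the left gene to the base before the start of the right gene. Capitals mark the CCAAT box, the TATAAA box and the octamer ATTTGCAT on either strand.
Hist1h2ac-Hist1h2bc (chr13:23775818-23776067): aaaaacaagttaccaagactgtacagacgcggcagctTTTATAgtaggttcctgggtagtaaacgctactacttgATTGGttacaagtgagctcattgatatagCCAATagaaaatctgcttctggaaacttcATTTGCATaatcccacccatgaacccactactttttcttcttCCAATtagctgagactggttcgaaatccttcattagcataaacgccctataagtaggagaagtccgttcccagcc
Hist1h2ae-Hist1h2bg (chr13:23663090-23663264): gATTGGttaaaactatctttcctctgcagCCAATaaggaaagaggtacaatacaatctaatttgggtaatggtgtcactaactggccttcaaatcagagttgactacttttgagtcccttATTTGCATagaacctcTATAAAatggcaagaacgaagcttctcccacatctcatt
Hist1h2bl-Hist1h2ai (chr13:21808013-21808280): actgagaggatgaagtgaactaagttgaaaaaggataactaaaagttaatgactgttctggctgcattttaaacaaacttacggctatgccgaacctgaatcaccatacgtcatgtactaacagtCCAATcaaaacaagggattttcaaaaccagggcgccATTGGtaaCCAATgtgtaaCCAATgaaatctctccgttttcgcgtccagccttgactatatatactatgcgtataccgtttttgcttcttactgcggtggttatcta
Hist1h2ah-Hist1h2bk (chr13:22127513-22127689): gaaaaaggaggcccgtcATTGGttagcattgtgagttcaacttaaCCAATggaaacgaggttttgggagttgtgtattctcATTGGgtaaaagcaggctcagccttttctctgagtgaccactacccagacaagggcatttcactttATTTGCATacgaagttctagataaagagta
Hist2h2ac-Hist2h2be (chr3:96024804-96025043): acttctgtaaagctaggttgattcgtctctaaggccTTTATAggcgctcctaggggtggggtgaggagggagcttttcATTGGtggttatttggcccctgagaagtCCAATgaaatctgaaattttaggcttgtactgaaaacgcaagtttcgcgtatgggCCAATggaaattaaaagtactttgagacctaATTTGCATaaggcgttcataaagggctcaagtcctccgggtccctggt

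CCAAT was found on either strand of the 250 bases upstream of 57 histone genes (85.1%) and of 34.5% of all autosomal genes. TATAAA was found there in 33 histone genes (49.3%) and in 12.2% of all genes, and ATTTGCAT in 15 (22.4%) and 1.64%. CCAAT was present for all 6 H1, all 19 H2A and all 18 H2B genes, for 10 of 11 H3 genes and for 4 of 13 H4 genes. ATTTGCAT was found for 7 H2A and 8 H2B genes and for no H1, H3 or H4 gene. These counts are of genes and not of separate sites, because the upstream windows of head-to-head H2A and H2B genes overlap. The same octamer was counted for both genes of *Hist1h2ac-Hist1h2bc*, *Hist1h2ae-Hist1h2bg*, *Hist1h2ah-Hist1h2bk*, *Hist1h2ba-Hist1h2aa* and *Hist2h2ac-Hist2h2be*. The windows of *Hist2h2aa1* and *Hist2h3c1* overlap as well. The octamer can be read in the printed sequences of *Hist1h2ac-Hist1h2bc*, *Hist1h2ae-Hist1h2bg*, *Hist1h2ah-Hist1h2bk* and *Hist2h2ac-Hist2h2be* and not in that of *Hist1h2bl-Hist1h2ai*. A match is a run of letters and not a measured binding site.

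In ESCs 63 of the 67 histone genes lay in PADs (94.0%), against 46.6% of all autosomal protein-coding genes. In NPCs 53 did (79.1%), against 69.4% of all genes. In ACs 49 did (73.1%), against 34.9%, and in thymus 32 did (47.8%), against 25.7%. The share of histone genes in PADs was thus highest in ESCs and lowest in thymus, and it was nearest to that of all genes in NPCs. A call describes a population of cells, so contact in fewer cells and weaker contact in each cell cannot be told apart. Genes of a cluster shared domains and were no replicates of each other. Without the 22 genes whose nearest end was over 5 kb away, 33 of 45 genes were in PADs in NPCs (73.3%) and 16 in thymus (35.6%). Of all genes chosen in the same way, 70.6% were in NPCs and 27.7% in thymus. With 1 call per cell type there was no replicate error and no test could be made.

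**Figure D1:**
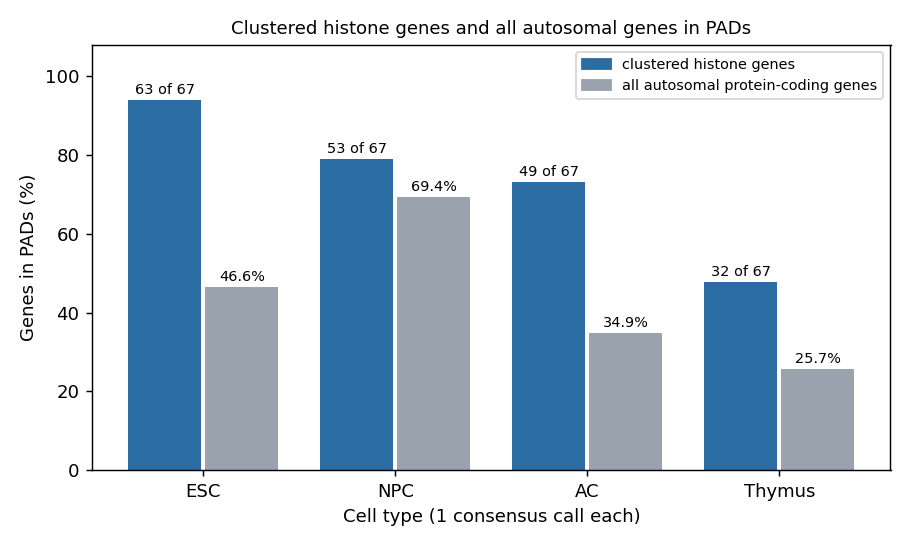
Share of genes in PADs (%) in ESC, NPC, AC and thymus, with the clustered histone genes in blue (63, 53, 49 and 32 of 67 genes) and all autosomal protein-coding genes in grey. The blue bar is the taller one in each cell type, with 94.0% against 46.6% in ESC and 79.1% against 69.4% in NPC.

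Of the histone genes, 30 had the same call in all 4 cell types (44.8%), against 34.5% of all genes. These were 27 genes in PADs throughout (40.3%, against 14.8% of all genes) and 3 genes in non-PADs throughout (4.48%, against 19.7%). With the NPC calls left out, 31 histone genes had the same call in ESCs, ACs and thymus (46.3%), which was below the share of all genes (61.3%), so the direction of that comparison depended on NPCs. In those 3 cell types 27 histone genes were PAD throughout (40.3%, against 17.2%) and 4 non-PAD throughout (5.97%, against 44.1%). A PAD in ESCs and a non-PAD in thymus was found for 31 genes (46.3%, against 26.7%), and the reverse for 0 genes, against 5.86% of all genes. The 31 genes fell into 3 sets: 20 were PAD in ESCs, NPCs and ACs (11.3% of all genes), 9 were PAD in ESCs alone (2.1%) and 2 were PAD in ESCs and ACs (0.911%). Another 5 genes were non-PAD in ACs alone (1.37%). The remaining gene, *Hist1h2al*, was PAD in NPCs alone, which was the call of 24.4% of all genes.

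The 6 clusters were unequal, and 63 of the 67 genes lay in 3 of them. On Chromosome 3 a cluster of 9 genes spanned 59.1 kb (chr3:96023839-96082924), between *Bola1* and *Fcgr1*. *Hist4h4* lay alone on Chromosome 6 (chr6:136752589-136752900), and *Hist3h2ba* and *Hist3h2a* made a pair on Chromosome 11 (chr11:58762413-58770176). Chromosome 13 held a first cluster of 23 genes over 328 kb (chr13:21807632-22135545), a second of 31 genes over 404 kb (chr13:23622919-24026720), and *Hist1h2al* alone (chr13:51298057-51298434). All genes of a cluster were in PADs in 3 of the 6 clusters in ESCs, 2 in NPCs and 1 in ACs, and 1 in thymus.

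**Figure D2:**
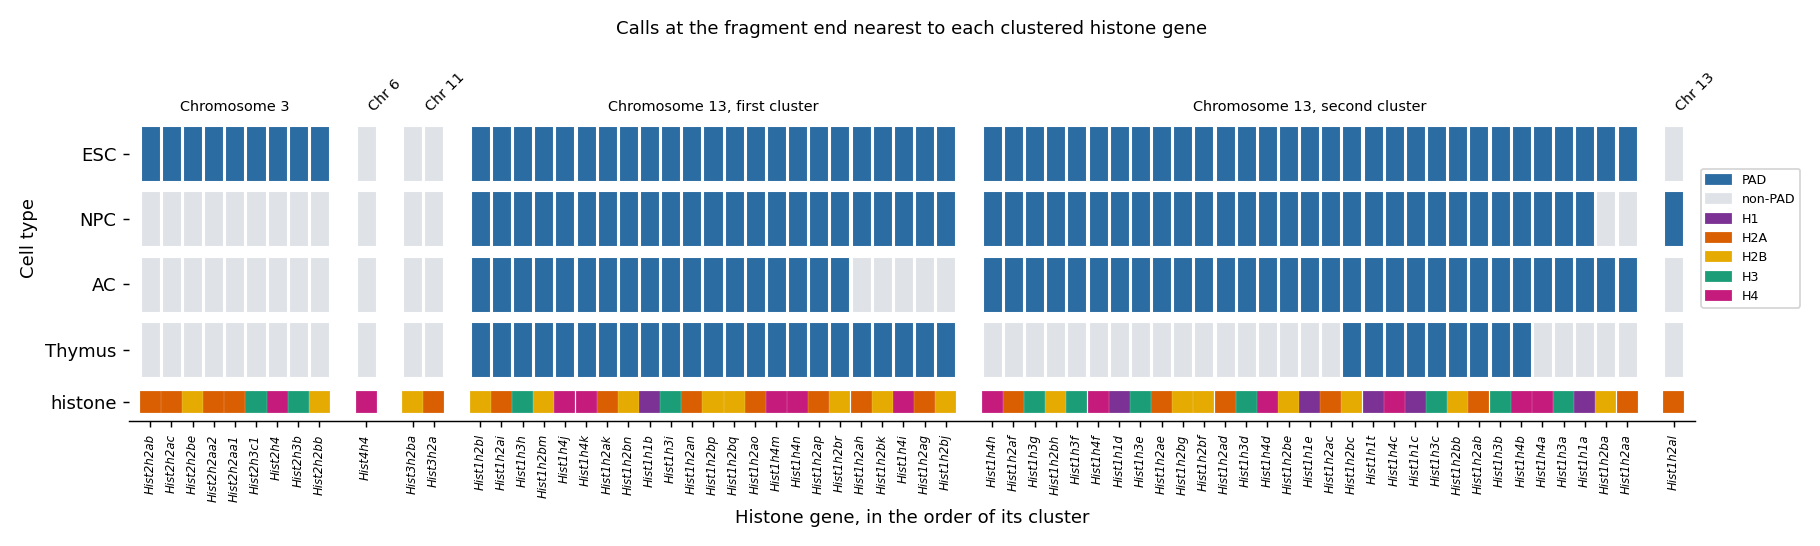
Calls of the 67 histone genes (columns, in the order of their clusters) in ESC, NPC, AC and thymus (rows), with PAD in blue, non-PAD in grey and the encoded histone in colour below. Calls change along a cluster at 1 place in NPC and 1 in AC and at 2 places in thymus, and the 9 genes of Chromosome 3 are blue in ESC only.

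The Chromosome 3 cluster encodes H2A, H2B, H3 and H4 and was a PAD in ESCs alone. Its 9 genes, *Hist2h2ab*, *Hist2h2ac*, *Hist2h2be*, *Hist2h2aa2*, *Hist2h2aa1*, *Hist2h3c1*, *Hist2h4*, *Hist2h3b* and *Hist2h2bb*, had identical calls. In ESCs they lay in a PAD of 1.86 Mb with 228 fragment ends, 185 to 239 kb inside its nearer border. In NPCs they lay in a non-PAD of 0.984 Mb, in ACs in one of 4.68 Mb and in thymus in one of 13.5 Mb. The thymus domain was among the longest of its kind, with 9 of 723 autosomal thymus non-PADs longer. The distance to the nearer border was 159 to 213 kb in NPCs and 1920 to 1980 kb in ACs, and 3770 to 3830 kb in thymus. The span held 14 fragment ends, and the 9 genes had 5 different nearest ends, so the 9 calls per cell type rested on 5 ends. *Hist2h2aa1* and *Hist2h3c1* overlap in the annotation.

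*Hist4h4*, which encodes H4, and *Hist3h2ba* and *Hist3h2a*, which encode H2B and H2A, were in non-PADs in every cell type. The non-PAD around *Hist4h4* measured 6.71 Mb in ESCs, 3.73 Mb in NPCs and 4.70 Mb in ACs, and 5.08 Mb in thymus, and the gene was 1610 kb or more from a border in each. Its neighbour *H2afj*, an H2A variant gene, was non-PAD in all 4 as well. The non-PAD around *Hist3h2ba* and *Hist3h2a* measured 4.35 Mb in ESCs, 2.31 Mb in NPCs and 2.61 Mb in ACs, and 7.26 Mb in thymus, with the genes 467 to 1950 kb from a border. No fragment end lay in the span of this pair, and the nearest were 8630.5 bp away for *Hist3h2ba* and 4392.5 bp for *Hist3h2a*.

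Of the 12 histone genes on other chromosomes than 13, 9 lay in PADs in ESCs and 0 in NPCs, ACs or thymus. On Chromosome 13, 54 of the 55 histone genes lay in PADs in ESCs (98.2%), 53 in NPCs (96.4%) and 49 in ACs (89.1%), and 32 in thymus (58.2%). Of the 810 other protein-coding genes of that chromosome, 53.0% did in ESCs, 75.9% in NPCs and 48.0% in ACs, and 36.2% in thymus. The 2 large clusters lie 18.8 and 20.6 Mb from the first called end of the chromosome. At 20 to 25 Mb on the other autosomes, 853 protein-coding genes were in PADs at 52.9% in ESCs, 56.4% in NPCs and 46.3% in ACs, and 47.6% in thymus. The histone genes of Chromosome 13 were thus above both sets in each cell type, and this again describes 2 large clusters and 1 single gene. Neither set was limited to the neighbourhood of these clusters. With the other Chromosome 13 genes of that band added, the shares of the 938 genes were 57.1%, 58.7%, 50.1% and 48.7%. Of the 48 other protein-coding genes inside and between the 2 large clusters, 48, 37, 39 and 38 were PAD, in the same order. All 23 and all 31 histone genes of these 2 clusters were PAD in ESCs, as the 48 were. The share of the 48 was above that of the histone genes of these clusters in thymus, and below it in NPCs and ACs.

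In ESCs both large clusters lay in 1 PAD of 3.64 Mb (chr13:20685238-24325291) with 571 fragment ends, which held 54 histone genes and all 48 other protein-coding genes between the first and the last of them. Of 1246 autosomal ESC PADs, 78 were longer. In the other cell types the same stretch was broken, and at different places. NPCs had a PAD of 0.930 Mb over the first cluster and one of 1.53 Mb over most of the second. ACs had PADs of 1.36 Mb and 6.37 Mb, and thymus had PADs of 1.84 Mb and 71.5 kb.

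**Figure D3:**
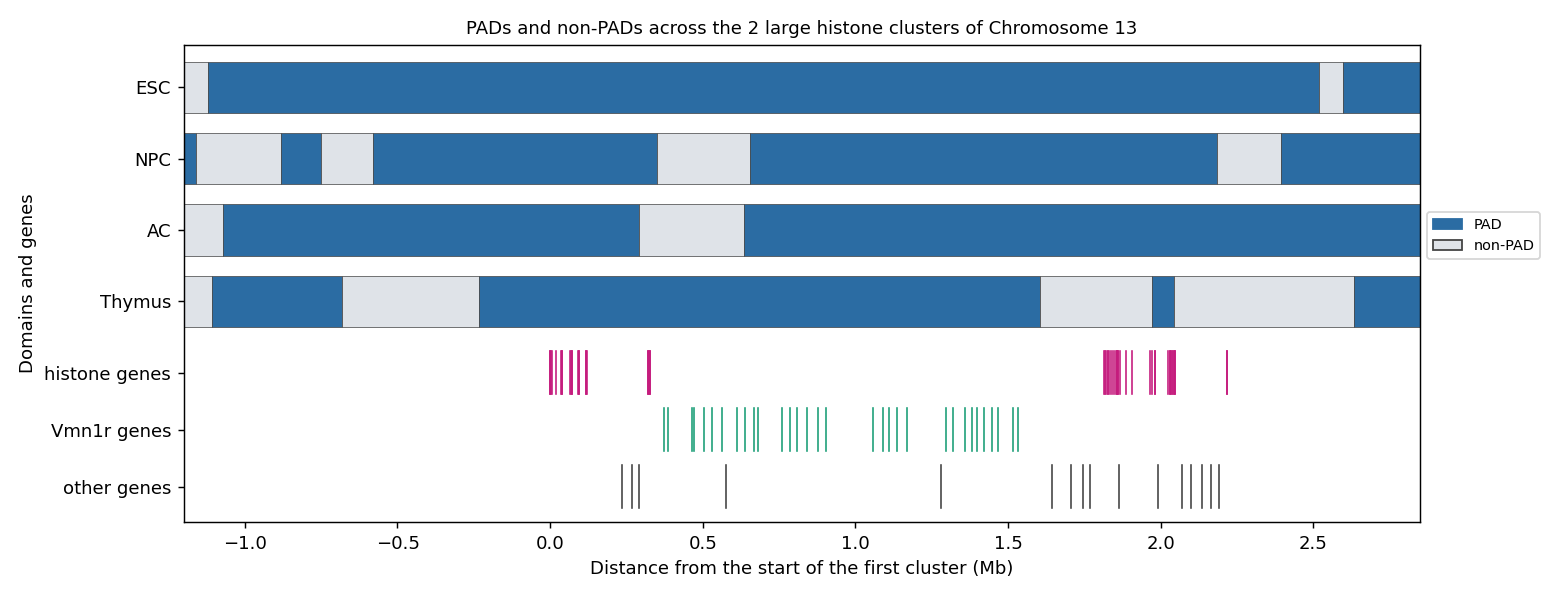
PADs (blue) and non-PADs (grey) in ESC, NPC, AC and thymus along Chromosome 13, as distance in Mb from the start of the first histone cluster, with histone, Vmn1r and other protein-coding genes as ticks below. The ESC row has 1 PAD of 3.64 Mb over both clusters, while the thymus row has a PAD of 71.5 kb inside the second cluster.

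The first cluster was in PADs nearly throughout. Its 23 genes encode 1 H1, 7 H2A, 8 H2B, 2 H3 and 5 H4, and 18 of them were PAD in all 4 cell types. They included *Hist1h1b*, the H1 gene of this cluster, the H3 genes *Hist1h3h* and *Hist1h3i*, and the H4 genes *Hist1h4j*, *Hist1h4k*, *Hist1h4m* and *Hist1h4n*. In thymus the whole cluster lay 233 to 561 kb inside its PAD (chr13:21574390-23413789). The other 5 genes, *Hist1h2ah*, *Hist1h2bk*, *Hist1h4i*, *Hist1h2ag* and *Hist1h2bj*, were PAD in ESCs, NPCs and thymus and non-PAD in ACs. They are 2 head-to-head H2A and H2B pairs with an H4 gene between them, and the fragment end nearest to each was 14371 to 16732 bp away.

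The AC border next to these 5 genes rested on few ends. It lay in a stretch of 22.9 kb between an end called PAD at position 22089008 and an end called non-PAD at position 22111936, and the 5 genes were 26.8 to 34.8 kb beyond its middle. The next ends, at positions 22112120 and 22149685, enclosed all 5 genes in a stretch of 37.6 kb without a called end. The AC non-PAD that held them measured 342 kb with 36 fragment ends (chr13:22100472-22442549). In NPCs the 5 genes were PAD but lay 23.1 to 31.1 kb from the right border of their domain.

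The first cluster was not poor in called ends as a whole, with a median of 141 in the 1 Mb around a gene, against 133 for all autosomal genes, but it held long stretches without one. Of its 62 MfeI sites, 21 were called ends (33.9%), against 57.1% of the sites in the second cluster and 41.2% over the autosomes. The longest stretch without an end in the first cluster measured 37.8 kb (chr13:21878687-21916505) and held 5 genes, *Hist1h2an*, *Hist1h2bp*, *Hist1h2bq*, *Hist1h2ao* and *Hist1h4m*. Of these, *Hist1h2bq* and *Hist1h2ao* have copies in reverse orientation to their right. *Hist1h2bq* and *Hist1h2br* have 3788 bases each and differed at 0 of them, and *Hist1h2ao* and *Hist1h2ap* have 519 each and differed at 0. The 23 genes rested on 9 fragment ends, and the part that the copies play in the calls was not tested.

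The second cluster held all 20 genes that were PAD in ESCs, NPCs and ACs and non-PAD in thymus. Its 31 genes encode 5 H1, 6 H2A, 7 H2B, 7 H3 and 6 H4. All 31 were PAD in ESCs and in ACs, 29 were PAD in NPCs and 9 in thymus. Of the fragment ends in its span, all 90 were PAD in ESCs and ACs, 82 in NPCs and 14 in thymus, which put 17.7% of the span in a PAD in thymus. The 31 genes had 22 different nearest ends. Called ends were denser here than around the other clusters, with a median of 193 ends in the 1 Mb around a gene, against 133 for all autosomal genes.

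The genes in thymus PADs were neighbours. From left to right, 17 genes (*Hist1h4h* to *Hist1h2ac*) lay in a thymus non-PAD of 365 kb, 9 genes (*Hist1h2bc* to *Hist1h4b*) in the PAD of 71.5 kb, and 5 genes (*Hist1h4a* to *Hist1h2aa*) in a non-PAD of 591 kb. The 9 genes were *Hist1h2bc*, *Hist1h1t*, *Hist1h4c*, *Hist1h1c*, *Hist1h3c*, *Hist1h2bb*, *Hist1h2ab*, *Hist1h3b* and *Hist1h4b*. They held each type of histone, and *Hist1h1t* encodes the linker histone of male germ cells. *Hfe*, which regulates iron uptake and is mutated in hereditary haemochromatosis, lay among them (chr13:23793903-23802723) and was PAD in all 4 cell types as well. The small PAD had 14 ends, and of 729 autosomal thymus PADs 82 were shorter and 646 were longer. The ends at its borders are shown with their restriction site in capitals (MfeI cuts at CAATTG and NlaIII at CATG), as the plus strand of mm9.
Left border, outside, non-PAD (chr13:23779203-23779242): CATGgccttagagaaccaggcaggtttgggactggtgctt
Left border, inside, PAD (chr13:23779266-23779305): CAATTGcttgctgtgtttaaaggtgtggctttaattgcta
Right border, inside, PAD (chr13:23850210-23850249): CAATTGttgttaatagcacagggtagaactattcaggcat
Right border, outside, non-PAD (chr13:23851191-23851230): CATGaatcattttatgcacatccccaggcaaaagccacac

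The called ends on either side of the border were 0.063 kb apart at the left and 0.981 kb apart at the right. This is the spacing of ends and not the accuracy of a border. The paper states that differences from cell to cell limit how exactly PAD boundaries can be defined, and reads its profiles by domain. The 9 genes lay 0.978 to 19.2 kb inside the PAD so drawn. Just outside were 4 genes, *Hist1h2ac* at 4.66 kb, *Hist1h4a* at 2.13 kb, *Hist1h3a* at 3.29 kb and *Hist1h1a* at 5.21 kb. *Hist1h4b* and *Hist1h4a*, which both encode H4, were thus called differently in thymus, with *Hist1h4b* 1.65 kb inside and *Hist1h4a* 2.13 kb outside the right border. With a majority of the 11 nearest ends in place of the nearest one, *Hist1h4a*, *Hist1h3a* and *Hist1h1a* were PAD in thymus, and the thymus count was 35.

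**Figure D4:**
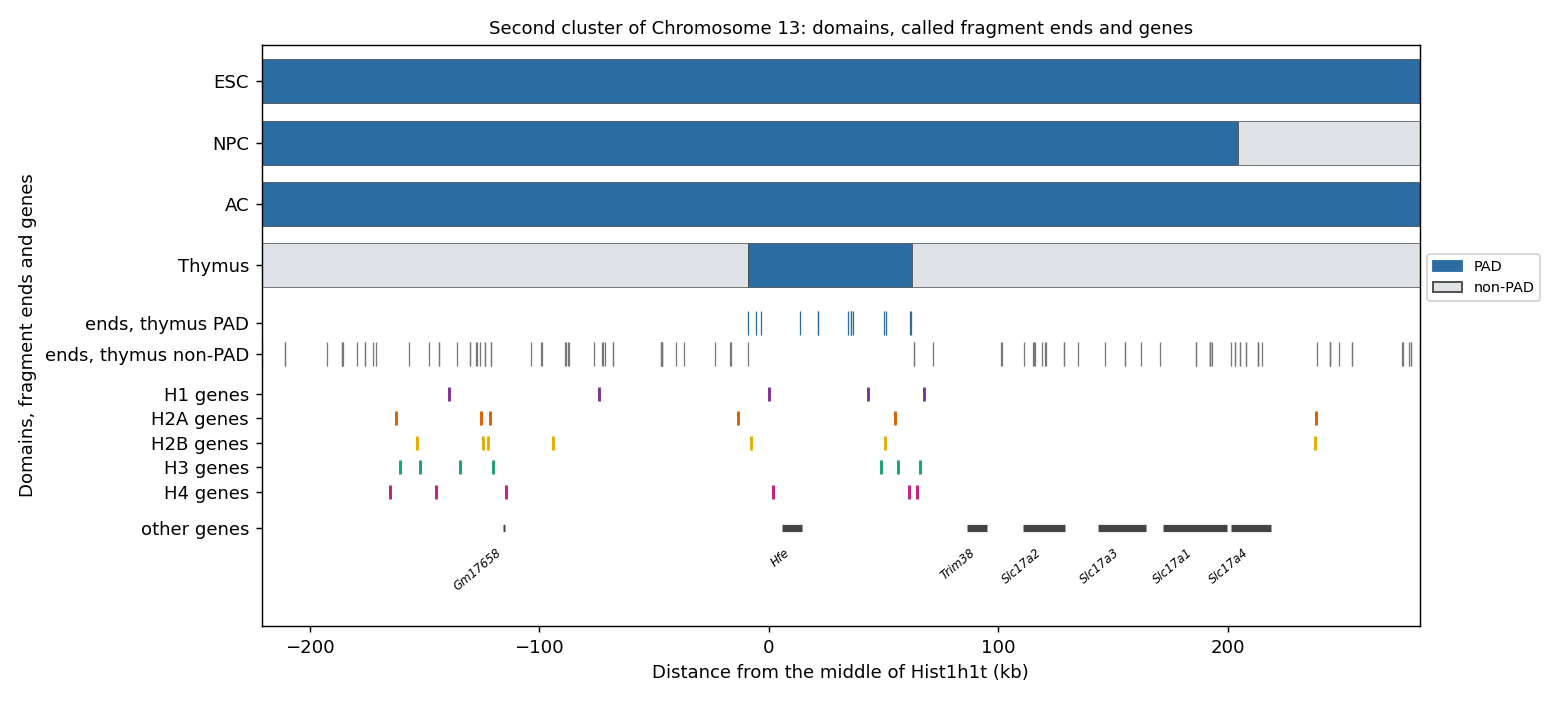
Domains in ESC, NPC, AC and thymus, fragment ends by their thymus call, histone genes by type and other protein-coding genes in the second cluster of Chromosome 13, as distance in kb from the middle of Hist1h1t. The thymus row has 1 PAD of 71.5 kb with 14 ends and 9 histone genes, between non-PADs with 17 genes on its left and 5 on its right.

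*Hist1h2ac* and *Hist1h2bc*, an H2A and H2B pair whose start sites are separated by the 250 bases printed first above, was the single pair with unlike calls. In thymus *Hist1h2ac* was non-PAD and *Hist1h2bc* was PAD, and in ESCs, NPCs and ACs both were PAD. The difference rested on the length of the annotated *Hist1h2bc*, 8290 bp, whose middle lay 0.978 kb inside the PAD while its start lay outside. Placed by its start site *Hist1h2bc* was non-PAD in thymus, as *Hist1h2ac* was, and the thymus count was 31. Of 12 head-to-head H2A and H2B pairs, with 167 to 305 bp between their start sites, the other 11 had the same call in every cell type. For 9 of the 12 pairs both genes had the same nearest fragment end, so their equal calls followed from the placement.

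*Hist1h2ba* and *Hist1h2aa*, which encode the H2B and H2A of the male germ line, lay at the right end of the cluster and had calls of their own. They were PAD in ESCs and ACs and non-PAD in NPCs and thymus. In NPCs they were in a non-PAD of 209 kb (chr13:23992281-24201566) with 38 ends, 33.5 and 34.2 kb beyond its left border. The called ends on either side of that border were 2.12 kb apart. The other 29 genes of the cluster were PAD in NPCs. In thymus both were 175 kb or more from a border.

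*Hist1h2al*, named as an H2A gene, lay between *Nxnl2* and *S1pr3*, far from the other histone genes of Chromosome 13. It was in a PAD of 5.11 Mb in NPCs and in non-PADs of 0.634 Mb in ESCs, 1.11 Mb in ACs and 6.27 Mb in thymus. The nearest end was 246.5 bp away.

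By type, all 6 H1 genes were PAD in ESCs, NPCs and ACs, and 3 were in thymus (*Hist1h1b*, *Hist1h1t* and *Hist1h1c*, with *Hist1h1a*, *Hist1h1d* and *Hist1h1e* non-PAD). Of 19 H2A genes 17 were PAD in ESCs, 13 in NPCs and 11 in ACs, and 8 in thymus. Of 18 H2B genes 17 were PAD in ESCs, 14 in NPCs and 13 in ACs, and 10 in thymus. Of 11 H3 genes 11 were in ESCs, 9 in NPCs and 9 in ACs, and 4 in thymus, and of 13 H4 genes 12, 11, 10 and 7 in the same order of cell types. Of all autosomal genes 46.6% were PAD in ESCs, 69.4% in NPCs and 34.9% in ACs, and 25.7% in thymus. In NPCs the H2A genes were thus near the share of all genes. Each type was spread over both large clusters. H1 had no gene outside these 2, while each other type had genes elsewhere, so counts over all clusters mix type with cluster. Within the second cluster the genes in PADs in thymus were 2 of 5 H1, 1 of 6 H2A, 2 of 7 H2B, 2 of 7 H3 and 2 of 6 H4. Of these 9 genes, 9 had the stem-loop motif, 8 CCAAT, 3 TATAAA and 3 ATTTGCAT, against 20, 19, 12 and 5 of the 22 genes of the cluster in thymus non-PADs. The octamer between *Hist1h2ac* and *Hist1h2bc* was counted on both sides of this comparison.

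Distances to borders summed up how deep the genes lay. The median distance of the 67 genes to the nearest border was 671 kb in ESCs, 256 kb in NPCs and 1210 kb in ACs, and 235 kb in thymus. No gene was within 50 kb of a border in ESCs, and 7 were in NPCs and 5 in ACs, and 13 in thymus. These counts rest on few borders. The 13 were the 9 genes in the small thymus PAD and *Hist1h2ac*, *Hist1h4a*, *Hist1h3a* and *Hist1h1a* just outside it. The 5 in ACs lay beside a single border of the first cluster. The 7 in NPCs were the same 5 genes with *Hist1h2ba* and *Hist1h2aa*. The share of all autosomal genes within 50 kb is not given here, so the counts have no background.

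**Figure D5:**
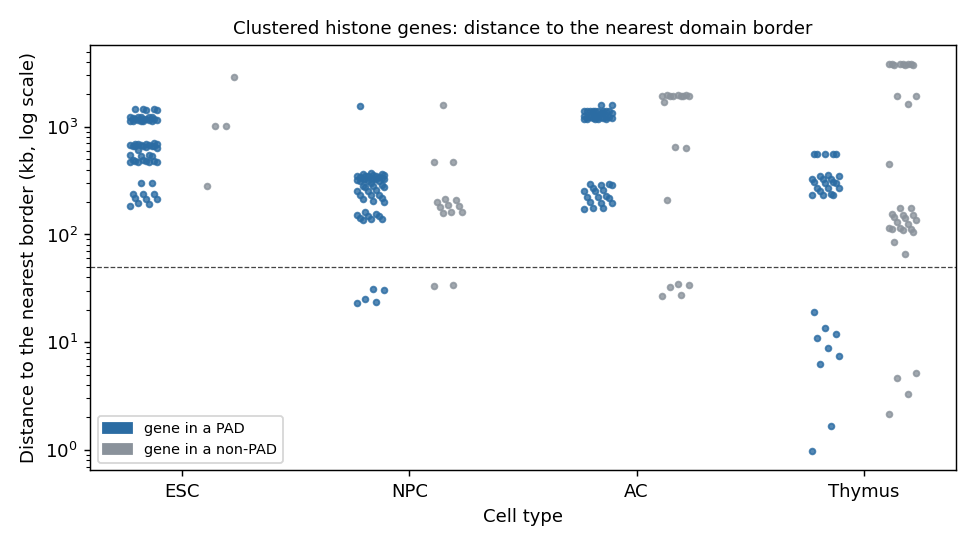
Distance of each of the 67 histone genes to the nearest domain border (kb, log scale) in ESC, NPC, AC and thymus, with genes in PADs in blue and genes in non-PADs in grey and a dashed line at 50 kb. The points below the line number 0 in ESC, 7 in NPC, 5 in AC and 13 in thymus.

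The other protein-coding genes between the first and last histone gene of the 2 large clusters numbered 48 over 2.22 Mb. All 48 were PAD in ESCs, 37 in NPCs and 39 in ACs, and 38 in thymus. The stretch between the clusters, 1.49 Mb long, held 33 pheromone receptor genes of the *Vmn1r* family (1 of them under the symbol *V1rh19*), all PAD in ESCs and in thymus, with 23 PAD in NPCs and 24 in ACs. The *Vmn1r* genes in non-PADs in NPCs and ACs were those next to the first cluster. To their right *Zfp322a*, *Abt1* and the butyrophilin genes *Btn1a1* and *Btn2a2* were PAD in ESCs, NPCs and ACs and non-PAD in thymus, as the first 17 histone genes of the second cluster were. Inside the first cluster *Zfp184*, *Pom121l2* and *Prss16*, which encodes a protease of the thymic cortex, were PAD in all 4 cell types. The AC border fell inside the annotated *Prss16*. The midpoint of this gene lay on the PAD side and its start on the non-PAD side.

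Inside the second cluster 7 other genes were PAD in ESCs and ACs, 6 in NPCs and 1, *Hfe*, in thymus. The transporter genes *Slc17a1*, *Slc17a2*, *Slc17a3* and *Slc17a4*, the ubiquitin ligase gene *Trim38* and *Gm17658* were non-PAD in thymus, and *Slc17a4* was non-PAD in NPCs too. The NPC border fell inside the annotated *Slc17a4*. A domain is a run of ends with 1 call, so histone genes and other genes of 1 thymus domain share a call by construction. The protein-coding genes in the 1 Mb around a histone gene numbered 49 as a median (8 to 54), against 17 for all autosomal genes. This number counts the histone genes themselves, so their clustering raises it. In the second cluster the median was 48, and that cluster has 31 histone genes. GC content in 20 kb was 42.9% (39.2% to 48.6%), against 44.5%.

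Histone genes outside the clusters mostly encode variants that are made throughout the cell cycle. Of 15 listed, 13 could be placed, and *H1f0* and *H3f3c* were not. Of the 13, 4 were PAD in ESCs, 8 in NPCs and 1 in ACs, and 0 in thymus, beside 46.6%, 69.4%, 34.9% and 25.7% of all autosomal genes. *H2afj*, *H2afx*, *H2afy* and *H2afz* were non-PAD in all 4 cell types, and *H1foo*, *H1fx*, *H2afv* and *Hils1* were PAD in ESCs and non-PAD in thymus. The replacement H3 genes *H3f3a* and *H3f3b* and the centromeric H3 gene *Cenpa* were PAD in NPCs alone, the call of 24.4% of all genes.

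Genes for the transcription and 3' end processing of histone mRNA numbered 25. Of these, 10 were PAD in ESCs, 13 in NPCs and 8 in ACs, and 3 in thymus, beside 46.6%, 69.4%, 34.9% and 25.7% of all autosomal genes. *Npat*, the coactivator of histone genes that cyclin E and Cdk2 act on, was PAD in all 4 cell types, as were *Cstf2t* and 14.8% of all genes. *Lsm11*, a subunit of the U7 particle that cuts histone mRNA, was PAD in ESCs, ACs and thymus and non-PAD in NPCs. *Slbp*, which encodes the stem-loop binding protein, *Hinfp*, which encodes a factor of H4 genes, *Zfp473* and *Sympk* were among 11 of the 25 genes in non-PADs in all 4. Of all genes 19.7% were. Of 14 histone chaperone genes 6 were PAD in ESCs, 11 in NPCs and 5 in ACs, and 1 in thymus, beside the same shares of all genes. The thymus gene was *Hjurp*, the chaperone of the centromeric H3, which was PAD in all 4, while *Asf1b*, *Chaf1b* and *Supt16h* were non-PAD in all 4. In thymus the clustered histone genes were in PADs at 47.8%, and these 3 lists at 0 of 13, 3 of 25 and 1 of 14, while all autosomal genes were at 25.7%. The lists are short, and their differences from all genes were not tested.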

How the data were processed

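The authors mapped sat4C reads to fragment ends of a reduced mm9 genome without Chromosome Y, fitted a hidden semi-Markov model with 2 states to each replicate (mhsmm package in R), and took the majority call of the replicates, ties being settled with a virtual replicate that pooled them. The aligner used is not given in these sources. The deposited values are other than numbers, namely the words PAD or nPAD (here non-PAD) for 399232 fragment ends in 4 columns. There were 0 columns per replicate, so depth and replicate error are unknown, and no p-value was computed.

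The position of an end was the first base of its interval. Domains were runs of ends with the same call, and a border was set at the middle of the stretch from the last end of one call to the first end of the next. Genes came from GENCODE vM1, sequences from NCBIM37 (mm9) and current symbols, for 66 of 67 genes, from RefSeq (GRCm38.p6). Motifs were sought in 250 bases upstream of the gene and in 150 bases after the longest coding sequence. The 150 bases start with the stop codon. Named were all histone genes, the other genes inside and between neighbouring clusters, the flanking genes and the listed pathway genes. Members and lists were chosen with earlier results of these data known. Alternatives changed the placement, the treatment of short runs, the gene types, the cell types and the distance between clusters. Placement was tested on simulated calls. The number of domains there was counted by the same rule on both sides, so it was no separate test of domains or borders. Python 3.11.15, numpy 2.4.6, pandas 2.3.3, pysam 0.24.0 and matplotlib 3.10.9 were used.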

Additional observations from a re-analysis of the deposited data

How the results depend on the processing

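Of 77 values recomputed under alternatives, 66 stayed within 1.5 times the reported count and 11 did not. The 11 were 7 with Chromosome 13 left out and 4 with genes far from an end left out. These alternatives kept 12 and 45 genes, so a count could move while its share changed little, and the tally is of counts only. With the 22 genes left out whose nearest fragment end was over 5 kb away, 33 of 45 genes were in PADs in NPCs (73.3%, against 70.6% of all genes chosen in the same way) and 16 in thymus (35.6%, against 27.7%), 18 had the same call in all 4 cell types and 16 were PAD in all 4 (35.6%, against 16.8%). With Chromosome 13 left out, 9 of 12 genes were in PADs in ESCs, and 0 each in NPCs, ACs and thymus. Of these 12, 3 had the same call in all 4 cell types, 0 were PAD in all 4, and 9 were PAD in ESCs and non-PAD in thymus. That alternative, and the one that used the interval holding the midpoint, were chosen after seeing the data. Placement by the start site, by any overlap or by the 11 nearest ends, absorption of runs under 5 ends, all gene types and NPC calls left out kept each count of histone genes within 1.5 times. With NPC calls left out the share of all genes moved more, to 61.3% for the same call and 44.1% for non-PAD throughout, so that the same call was less frequent among the histone genes (46.3%) than among all genes. The number of clusters was 8 at 100 kb and 5 at 2 Mb. No paired analysis was possible because the deposited calls hold 1 consensus column per cell type, and for the same reason no replicate could be left out. Read depth is unknown, so its effect on the calls was not tested.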
